A study of Mus musculus with 8 samples.

Results

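Integrins are cell surface receptors built from an alpha and a beta chain, and laminins are cross-shaped proteins of an alpha, a beta and a gamma chain that form the scaffold of basement membranes. Their genes were chosen by symbol alone, as every integrin alpha gene, integrin beta gene and laminin chain gene with a probe set that names only that gene. This gave 34 genes of the 18194 measured, namely 16 integrin alpha genes, 8 integrin beta genes and 10 laminin chain genes. Where a gene had several such probe sets, the one with the largest mean of the 8 arrays stood for it. Membership was set by symbols and not by measured values, but these families were chosen with earlier results of these data known.

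Mouse cells were profiled on 8 Affymetrix arrays of total RNA, 1 array per sample. Parthenogenetic stem cells (PSC, 3 arrays) were of strain C57BL/6 and came from oocytes of superovulated mice, activated with strontium chloride and grown to blastocysts from which cells were isolated at day 6, so that they carry maternal genomes only. Embryoid bodies (EB_PSC, 2 arrays), which are aggregates in which stem cells differentiate into mixed tissues, were made from C57BL/6 PSC and cultured for 15 days. Embryonic stem cells (ESC, 3 arrays) were of the line R1, grown with leukemia inhibitory factor on feeder layers of mouse embryonic fibroblasts. The labels give a feeder layer only for ESC and a strain only for PSC and EB_PSC, so parental origin, cell line, strain and feeders cannot be told apart between PSC and ESC. Separate cultures are not mentioned in any label, so p-values rest on the spread among these samples alone, and that spread may be technical.

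During development, integrins anchor cells to fibronectin, collagen, vitronectin and laminin and pass signals to the cytoskeleton through talin, kindlin and the integrin-linked kinase. An integrin's ligand is set by the pair of chains it holds, and many alpha chains share the beta chain of Itgb1. In the early embryo and in embryoid bodies the first basement membrane lies under the endoderm, and stem cells attach to laminin mainly through the pair encoded by Itga6 and Itgb1.

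All values are log2 of the authors' RMA intensities. A gene was called dim in a group whose mean lay below 5.44, the median of all deposited values, because RMA shrinks differences between weak signals. For such a gene the printed difference may understate the true one and is not turned into a fold. By the probe set used, 10 of the 34 genes were dim in every group (Itga4, Itga7, Itga10, Itgam, Itgax, Itgb2, Itgb3, Itgb6, Lamb3 and Lamc3) and 24 were above the limit in at least 1 group. A filter on the mean over all 8 arrays kept 20 of them and removed Itga2, Itga8, Itgb4 and Itgb8. Levels are compared only between groups for the same gene, since probe sets of different genes bind with different strength.

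Arrays of the same group correlated at 0.991 to 0.995 over all probe sets. Correlations were 0.978 to 0.986 between PSC and ESC arrays, 0.934 to 0.943 between EB_PSC and PSC arrays and 0.925 to 0.941 between EB_PSC and ESC arrays. As a sign of RNA quality, the Gapdh control signal at the 3' end minus that at the 5' end was between -0.06 and 0.00 in PSC, between -0.09 and -0.06 in EB_PSC and between 0.08 and 0.17 in ESC, on the log2 scale. For Actb it was 1.04 to 1.54 in PSC, 1.09 to 1.17 in EB_PSC and 0.69 to 1.13 in ESC. The part of RNA quality in differences from ESC was not tested. All 10 markers of pluripotent cells were above the limit in each of the 3 groups, and all 10 were called lower in EB_PSC than in PSC. All 10 markers of cardiomyocytes and all 8 of parietal endoderm were called higher in EB_PSC than in PSC. Marker counts are to be read beside the shares of all genes called. These were 18.8 percent higher and 25.2 percent lower in EB_PSC against PSC, and 9.07 and 11.7 percent in PSC against ESC.

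**Figure D1:**
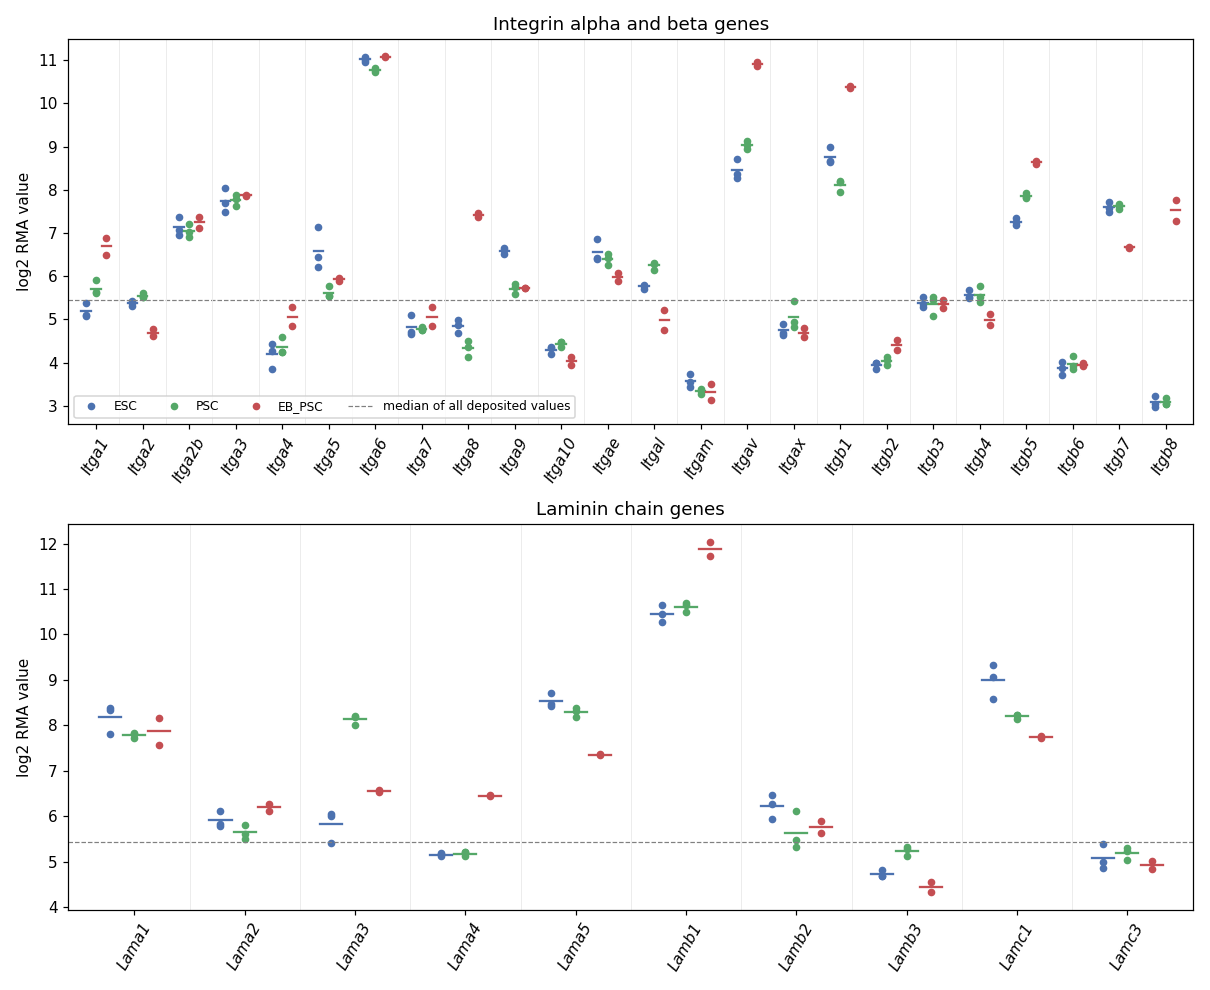
The log2 RMA value (vertical axis) of each of the 24 integrin genes (upper panel) and 10 laminin chain genes (lower panel) on every array, with ESC in blue, PSC in green, EB_PSC in red, a short line at each group mean and a dashed line at 5.44, the median of all deposited values. Itgb8, Itga8, Itgb1 and Itgav stand apart upward in EB_PSC, and Lama3 stands apart upward in PSC.

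The first comparison, EB_PSC against PSC, shows what differed after the stem cells had formed embryoid bodies. The receptor genes Itgb8, Itga8, Itgb1 and Itgav and the laminin genes Lama4 and Lamb1 were higher in embryoid bodies by 1.27 log2 units or more. The laminin genes Lama3 and Lama5 and the integrin genes Itgal, Itgb7 and Itga2 fell by 0.85 or more. In all, 12 of the 34 genes were called higher and 9 lower, while 13 did not pass an adjusted p of 0.05 in limma. That is 61.8% called, where 43.9 percent of all 18194 genes were called in this comparison. In the higher direction the share was 12 of 34 against 18.8 percent of all genes, and in the lower direction 9 of 34 against 25.2 percent. The arrays of EB_PSC and PSC did not overlap for 26 of the 34 genes (76.5%), where 62.8 percent of all genes did not overlap. Over the members the median difference was 0.09, and over all genes it was -0.09. With cyclic loess normalization the calls over all genes moved from 3417 higher and 4578 lower to 4185 higher and 3566 lower. Among the members, 5 alpha genes were called higher and 4 lower of 16, 4 beta genes higher and 2 lower of 8, and 3 laminin genes higher and 3 lower of 10. In these bulk samples, fewer cells of a type and less RNA per cell cannot be told apart.

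The starts of 6 genes are printed here, to show the promoter sequence of the 4 largest rises and the 2 largest falls in this comparison among the genes with exactly 1 start in the RefSeq table. Each is the 250 bases before the start of the RefSeq gene in the mouse assembly GRCm38.p6, read 5' to 3' on the gene's own strand, and capitals mark CG dinucleotides, the sites where mammalian DNA is methylated. Itgb8 lies on the minus strand (chr12:119238277-119238526), as do Itga8 (chr2:12301945-12302194), Itgb7 (chr15:102231936-102232185) and Lama5 (chr2:180225860-180226109). Itgb1 (chr8:128685404-128685653) and Itgav (chr2:83724147-83724396) lie on the plus strand.
Itgb8: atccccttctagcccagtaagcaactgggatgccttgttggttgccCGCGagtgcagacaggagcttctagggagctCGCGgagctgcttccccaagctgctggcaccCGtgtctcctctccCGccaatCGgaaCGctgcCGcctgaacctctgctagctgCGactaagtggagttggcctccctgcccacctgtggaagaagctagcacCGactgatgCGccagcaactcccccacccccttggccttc
Itga8: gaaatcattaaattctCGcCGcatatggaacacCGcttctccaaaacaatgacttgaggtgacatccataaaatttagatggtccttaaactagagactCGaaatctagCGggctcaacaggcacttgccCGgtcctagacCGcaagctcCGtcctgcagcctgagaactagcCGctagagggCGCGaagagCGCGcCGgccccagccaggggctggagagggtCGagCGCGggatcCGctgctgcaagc
Itgb1: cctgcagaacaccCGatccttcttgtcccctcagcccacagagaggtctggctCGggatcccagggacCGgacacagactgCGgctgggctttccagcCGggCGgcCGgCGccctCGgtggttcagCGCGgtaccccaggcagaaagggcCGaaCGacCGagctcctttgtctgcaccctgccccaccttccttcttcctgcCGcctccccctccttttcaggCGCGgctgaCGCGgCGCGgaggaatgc
Itgav: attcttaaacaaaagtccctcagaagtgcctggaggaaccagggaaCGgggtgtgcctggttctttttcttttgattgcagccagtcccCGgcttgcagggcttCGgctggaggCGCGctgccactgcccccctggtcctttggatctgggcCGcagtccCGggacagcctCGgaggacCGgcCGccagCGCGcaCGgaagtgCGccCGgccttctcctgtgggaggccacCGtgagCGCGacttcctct
Itgb7: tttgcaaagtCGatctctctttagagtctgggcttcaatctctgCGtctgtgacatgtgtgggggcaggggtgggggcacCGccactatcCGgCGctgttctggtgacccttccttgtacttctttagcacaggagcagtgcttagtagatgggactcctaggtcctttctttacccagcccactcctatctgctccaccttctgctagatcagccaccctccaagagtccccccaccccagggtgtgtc
Lama5: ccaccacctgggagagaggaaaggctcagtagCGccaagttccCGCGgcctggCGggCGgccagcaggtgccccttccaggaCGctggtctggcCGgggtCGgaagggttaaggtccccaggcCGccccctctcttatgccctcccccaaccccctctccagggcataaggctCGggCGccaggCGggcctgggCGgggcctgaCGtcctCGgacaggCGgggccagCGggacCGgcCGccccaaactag

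These windows held 12 CG dinucleotides for Itgb8, 18 for Itga8, 21 for Itgb1 and 18 for Itgav. Itgb7 held 5 and Lama5 held 19. RefSeq windows were found for 22 of the 34 genes, 3 of them with 2 starts, which gave 25 windows. Their median was 10 CG dinucleotides (0 to 22), and the median of all 32851 windows of the table was 6. The 9 windows of genes called higher in embryoid bodies had a median of 14 (0 to 21), the 6 windows of genes called lower had a median of 4 (2 to 19), and the 10 windows of genes not called had a median of 5.5 (2 to 22). The ranges of the 3 sets overlap, and no test was made. Median GC content was 57.6% in the members' windows and 52.4% in all windows.

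Letters bound by known factor families were searched on both strands of the same windows, as a description. The GATA letters AGATAA were in 1 of the 25 members' windows and in 3281 of all 32851 windows. The SOX letters AACAAT were in 12.0% of the members' windows and 9.4% of all windows, and the Sp letters GGGCGG were in 36.0% and 32.7%. The AP-1 letters TGANTCA were in 4.0% and 6.7%, and the TEAD letters GGAATG were in 12.0% and 12.6%. Of the 6 printed windows, Lama5 held 4 matches to the Sp letters and Itgb1 held 1, Itgb1 held 1 match to the TEAD letters and Itga8 held 1 to the SOX letters.

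The largest rises were those of Itgb8, Itga8, Itgb1 and Itgav, chains of receptors that bind the RGD letters of fibronectin, vitronectin or latent TGF-beta. Itgb1 is shared with many other receptors. Itga5, Itgb3 and Itgb6, chains of further RGD receptors, were not called by the probe set used. Itgb8, the partner of Itgav in a receptor of latent TGF-beta, was at 3.03, 3.05 and 3.19 on the PSC arrays, at 7.28 and 7.76 on the EB_PSC arrays and at 3.03, 2.97 and 3.23 on the ESC arrays. It was thus dim on every stem cell array and above the limit on both embryoid body arrays, with no overlap. The difference between EB_PSC and PSC was 4.43 ± 0.15 log2 units (SE, limma adjusted p = 7.3e-11), the largest among the members. It lay between 4.19 and 4.67 under the alternatives that held this gene, which the filter on dim genes removed. This gene has 1 probe set that names only it, so no other probe set was compared.

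Itga8, whose product pairs with that of Itgb1 and binds nephronectin, was at 4.35, 4.14 and 4.49 in PSC, 7.37 and 7.47 in EB_PSC and 4.88, 4.98 and 4.68 in ESC. Both embryoid body arrays lay above every stem cell array, and the rise over PSC was 3.09 ± 0.14 (adjusted p = 1.18e-09). Averaged over its probe sets the rise of Itga8 was 1.94 (adjusted p = 1.98e-07). Itgb1, the beta chain shared by most matrix receptors, was at 8.21, 7.96 and 8.17 in PSC, 10.36 and 10.41 in EB_PSC and 9.0, 8.67 and 8.64 in ESC. The 3 groups did not overlap, with PSC lowest and EB_PSC highest. Itgb1 rose by 2.27 ± 0.14 over PSC (4.82-fold, adjusted p = 2.93e-08), and by 0.97 (adjusted p = 6.87e-06) when all of its probe sets were averaged.

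Itgav, the alpha chain that pairs with several beta chains in receptors of vitronectin and latent TGF-beta, was at 9.03, 8.94 and 9.14 in PSC, 10.87 and 10.97 in EB_PSC and 8.37, 8.70 and 8.28 in ESC. The rise over PSC was 1.88 ± 0.14 (3.68-fold, adjusted p = 2.01e-07), and 0.52 (adjusted p = 0.00116) averaged over the probe sets of Itgav. Itgb5, a partner of Itgav on vitronectin, was at 7.92, 7.81 and 7.84 in PSC, 8.66 and 8.60 in EB_PSC and 7.26, 7.18 and 7.35 in ESC. For both genes the 3 groups were apart, in the order ESC, PSC and EB_PSC from low to high. Itgb5 rose by 0.78 ± 0.12 over PSC (1.71-fold, adjusted p = 0.000129). Itgb6, an epithelial partner of Itgav, was dim on every array, between 3.72 and 4.15, with a difference of -0.02 ± 0.14. Itgb3, a partner of Itgav and of the platelet chain Itga2b, was at 5.08 to 5.52 in PSC and at 5.27 and 5.45 in EB_PSC, with a difference of 0.01 ± 0.15. A second probe set of Itgb3, at 5.15 in PSC and 6.10 in EB_PSC, gave 0.96 (adjusted p = 0.000374), so the probe sets of this gene disagree and the gene is above the limit in EB_PSC by 1 of them.

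Among the chains that bind fibronectin, the difference of Itga5, the main fibronectin receptor with Itgb1, was 0.30 ± 0.21 (adjusted p = 0.284), although both EB_PSC arrays (5.96 and 5.89) lay above the PSC arrays (5.55, 5.55 and 5.77). Itga4, which binds fibronectin and the vascular adhesion molecule VCAM, was at 4.59, 4.23 and 4.25 in PSC, 4.85 and 5.28 in EB_PSC and 3.86, 4.44 and 4.27 in ESC, and was dim throughout. It rose by 0.71 ± 0.19 (adjusted p = 0.00736). The call of Itga4 was lost without EB_PSC replicate 2 (0.49, adjusted p = 0.107) and with its probe sets averaged (0.19, adjusted p = 0.236). Itga9, a receptor of tenascin, was at 5.74, 5.81 and 5.58 in PSC and at 5.73 on both EB_PSC arrays, a difference of 0.02 ± 0.12 (adjusted p = 0.921). Its other probe sets were called in opposite directions, as given further on.

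The collagen receptors moved in different directions. Itga1, common in smooth muscle and mesenchyme, was at 5.64, 5.60 and 5.90 in PSC, 6.89 and 6.48 in EB_PSC and 5.08, 5.38 and 5.10 in ESC, so that the groups did not overlap. Itga1 rose by 0.98 ± 0.16 over PSC (1.97-fold, adjusted p = 0.000214), or by 0.46 (adjusted p = 0.00537) with its probe sets averaged. Itga2, the collagen receptor of platelets and epithelia, was at 5.60, 5.51 and 5.51 in PSC, 4.62 and 4.77 in EB_PSC and 5.31, 5.42 and 5.38 in ESC. Both embryoid body arrays lay below all stem cell arrays, and Itga2 fell by 0.85 ± 0.12 (adjusted p = 6.08e-05). Itga10, the collagen receptor of cartilage, was dim at 4.48, 4.36 and 4.48 in PSC, 3.95 and 4.14 in EB_PSC and 4.36, 4.20 and 4.34 in ESC. It fell by 0.39 ± 0.13 against PSC (adjusted p = 0.0200). This call of Itga10 was lost without PSC replicate 1 (adjusted p = 0.0579), PSC replicate 3 (0.0556) or EB_PSC replicate 1 (0.161).

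Of the alpha chains that bind laminin, Itga6 was called higher by a small amount, and Itga3 and Itga7 were not called. Itga6, the main laminin receptor of stem cells, was at 10.81, 10.78 and 10.74 in PSC, 11.09 and 11.08 in EB_PSC and 10.96, 11.02 and 11.07 in ESC. It was called higher in EB_PSC by 0.31 ± 0.12 (1.24-fold, adjusted p = 0.0471). That call was lost when any 1 of the 5 arrays was left out: the adjusted p of Itga6 was 0.0752, 0.0857 and 0.108 without PSC replicates 1, 2 and 3, and 0.144 and 0.129 without EB_PSC replicates 1 and 2. It was also lost with its probe sets averaged (0.03, adjusted p = 0.877) and with array weights (adjusted p = 0.0514). Itga3, a laminin receptor of epithelia, lay between 7.62 and 7.88 on the PSC arrays and at 7.88 and 7.87 on the EB_PSC arrays, a difference of 0.11 ± 0.16 (adjusted p = 0.627). The difference of Itga7, the laminin receptor of muscle, was 0.28 ± 0.16 (adjusted p = 0.19), at dim levels, and it passed the threshold only without EB_PSC replicate 1 (0.50, adjusted p = 0.05).

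Itgb4, which pairs with Itga6 in the hemidesmosomes of epithelia, was at 5.52, 5.76 and 5.39 in PSC, 4.87 and 5.12 in EB_PSC and 5.68, 5.52 and 5.48 in ESC. The embryoid body arrays were lowest without overlap, and Itgb4 fell by 0.57 ± 0.14 against PSC (adjusted p = 0.00574), a call lost without EB_PSC replicate 1 (-0.44, adjusted p = 0.073). Markers of surface epithelium were called higher in EB_PSC for 4 of 10 and lower for 2, with a summed level of 13.98 to 14.13 in EB_PSC and 11.41 to 11.62 in PSC. Krt14 and Trp63 of that list were dim in both groups. The part of epithelial cells in these values was not tested.

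Of the integrins of leukocytes, Itgal, Itgb7 and Itgae fell, Itgb2 rose at a dim level, and Itgam and Itgax were not called. Itgal, the alpha chain of the lymphocyte receptor for ICAM proteins, was at 6.28, 6.15 and 6.31 in PSC, 5.21 and 4.75 in EB_PSC and 5.78, 5.71 and 5.79 in ESC. PSC arrays were highest, ESC arrays intermediate and EB_PSC arrays lowest, with no overlap. Itgal fell by 1.26 ± 0.14 (adjusted p = 8.9e-06), and by 0.69 (adjusted p = 7.73e-05) with its probe sets averaged. Itgb7, the gut-homing beta chain that pairs with Itga4 and Itgae, was at 7.63, 7.68 and 7.56 in PSC, 6.68 and 6.65 in EB_PSC and 7.72, 7.48 and 7.58 in ESC. It fell by 0.95 ± 0.12 (1.94-fold, adjusted p = 2.86e-05), to a level below every stem cell array.

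Itgae, the partner of Itgb7 that binds E-cadherin, was at 6.52, 6.26 and 6.42 in PSC, 6.07 and 5.88 in EB_PSC and 6.42, 6.86 and 6.41 in ESC. It fell by 0.43 ± 0.16 (1.34-fold, adjusted p = 0.0433). The call of Itgae was lost without PSC replicate 1 (adjusted p = 0.132), PSC replicate 3 (0.0944), EB_PSC replicate 1 (0.0599) or EB_PSC replicate 2 (0.227), and with cyclic loess (0.172). Without probe sets whose names end in _x_at or _s_at, Itgae fell by 0.69 (adjusted p = 0.00135). Itgb2, the partner of Itgal, Itgam and Itgax on leukocytes, was dim at 4.13, 3.94 and 4.06 in PSC, 4.30 and 4.51 in EB_PSC and 3.85, 3.99 and 4.0 in ESC. It rose by 0.36 ± 0.13 (adjusted p = 0.0356), a call lost without PSC replicate 2 (0.111), PSC replicate 3 (0.0662) or EB_PSC replicate 2 (0.25, adjusted p = 0.241). Itgam and Itgax, the alpha chains of macrophages and dendritic cells, differed by -0.01 ± 0.14 and -0.37 ± 0.17 and did not pass the test (adjusted p = 0.957 and 0.0997), and neither did Itga2b of platelets (0.20 ± 0.16, adjusted p = 0.327).

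Markers of the cells that carry these receptors gave mixed counts, where 18.8 percent of all genes were called higher and 25.2 percent lower. Of 12 macrophage markers 8 were called higher in EB_PSC than in PSC and 1 lower, with a summed level of 9.17 to 10.14 in EB_PSC and 9.48 to 9.69 in PSC, and Ptprc, Adgre1, C1qa, C1qb, C1qc and Cx3cr1 were dim in EB_PSC. Of 6 measured lymphocyte markers none was called higher and 1 was called lower, with 7.97 to 8.08 against 8.23 to 8.47, and Cd3g, Cd79a and Cd2 were dim in both groups. Among 8 platelet markers 3 were called higher and 1 lower, with 8.76 to 9.29 against 8.68 to 8.79, and Ppbp and Gp6 were dim in EB_PSC. The part of these cells in the integrin differences was not tested.

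Laminin alpha chains set where a laminin is found, and they moved apart. Lama4, the chain of vessels and mesenchyme, was at 5.12, 5.22 and 5.21 in PSC, 6.45 and 6.46 in EB_PSC and 5.19, 5.12 and 5.16 in ESC. It was dim on all stem cell arrays and rose by 1.27 ± 0.12 in EB_PSC (adjusted p = 1.08e-06), or by 0.72 (adjusted p = 9.59e-05) with the Lama4 probe sets averaged. Lama2, the chain of muscle basement membranes, was at 5.62, 5.81 and 5.50 in PSC, 6.13 and 6.28 in EB_PSC and 5.83, 6.12 and 5.78 in ESC. Lama2 rose by 0.56 ± 0.15 over PSC (1.47-fold, adjusted p = 0.00678), a call lost without EB_PSC replicate 2 (0.48, adjusted p = 0.0621).

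Lama3, the chain of the epithelial laminin that hemidesmosomes attach to, was at 8.00, 8.20 and 8.19 in PSC, 6.58 and 6.54 in EB_PSC and 6.00, 6.06 and 5.42 in ESC. PSC stood above both other groups without overlap. Against PSC it fell by 1.57 ± 0.17 in embryoid bodies (2.97-fold, adjusted p = 6.92e-06), or by 0.91 (adjusted p = 9.5e-05) with the Lama3 probe sets averaged. Lama5, the chain of the laminin most used by stem cells and of many adult basement membranes, was at 8.18, 8.33 and 8.37 in PSC, 7.35 and 7.36 in EB_PSC and 8.72, 8.42 and 8.47 in ESC. It fell by 0.94 ± 0.13 (1.92-fold, adjusted p = 5.92e-05), with both embryoid body arrays below all stem cell arrays. The difference of Lama1, the chain of the first embryonic basement membrane, was 0.07 ± 0.19 (adjusted p = 0.795). Its EB_PSC arrays, at 8.16 and 7.57, lay on either side of the PSC arrays at 7.71, 7.82 and 7.84.

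Of the beta and gamma chains, Lamb1, part of most embryonic laminins, was at 10.69, 10.50 and 10.64 in PSC, 12.04 and 11.72 in EB_PSC and 10.26, 10.44 and 10.64 in ESC. Both embryoid body arrays were highest, and the rise was 1.27 ± 0.15 (2.41-fold, adjusted p = 1.11e-05). Lamb3, the partner of Lama3 in the epithelial laminin, was dim at 5.29, 5.32 and 5.12 in PSC, 4.33 and 4.55 in EB_PSC and 4.68, 4.82 and 4.68 in ESC. Like Lama3 it was highest in PSC without overlap, and it fell by 0.80 ± 0.13 in EB_PSC (adjusted p = 0.000193).

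Lamc1, the gamma chain of most laminins, was at 8.22, 8.23 and 8.14 in PSC, 7.77 and 7.72 in EB_PSC and 9.34, 8.57 and 9.06 in ESC. The EB_PSC arrays were lowest, but the difference from PSC was -0.45 ± 0.18 and did not pass the test (adjusted p = 0.0594). The call of Lamc1 was gained with repeated quantile normalization (adjusted p = 0.031), with the filter on dim genes (0.0477), with array weights (0.0297) and when only these 2 groups were fitted (0.00864). Lamb2, the beta chain of muscle and kidney, differed by 0.13 ± 0.22 (adjusted p = 0.684), and Lamc3, the remaining gamma chain measured, by -0.27 ± 0.16 (adjusted p = 0.205) at dim levels.

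Markers of cell types known for these laminins also differed between the groups. All 8 parietal endoderm markers were called higher in EB_PSC, with a summed level of 12.57 against 10.57 to 10.75 in PSC. None was dim in EB_PSC and 6 were dim in PSC. Sparc alone was at 11.66 in EB_PSC and 10.36 in PSC. It is also in the list of other basement membrane genes, and Krt19 is also in the surface epithelium list, so this list is not specific. Of 10 endothelial markers 8 were called higher and 1 lower, with 10.46 to 10.51 against 9.41 to 9.60 and Tie1 dim in EB_PSC. Smooth muscle markers were called higher for 4 of 6, with 14.41 to 14.48 against 9.04 to 9.21 and Myh11 dim in EB_PSC, and cardiomyocyte markers for 10 of 10, with 12.62 to 13.24 against 8.64 to 8.68 and Ryr2 dim in EB_PSC. Fibroblast markers were called higher for 7 of 10 and lower for 1, with 12.76 to 13.10 against 8.78 to 8.95 and Fap dim in EB_PSC. The part of each of these cell types in the integrin and laminin values was not tested.

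**Figure D2:**
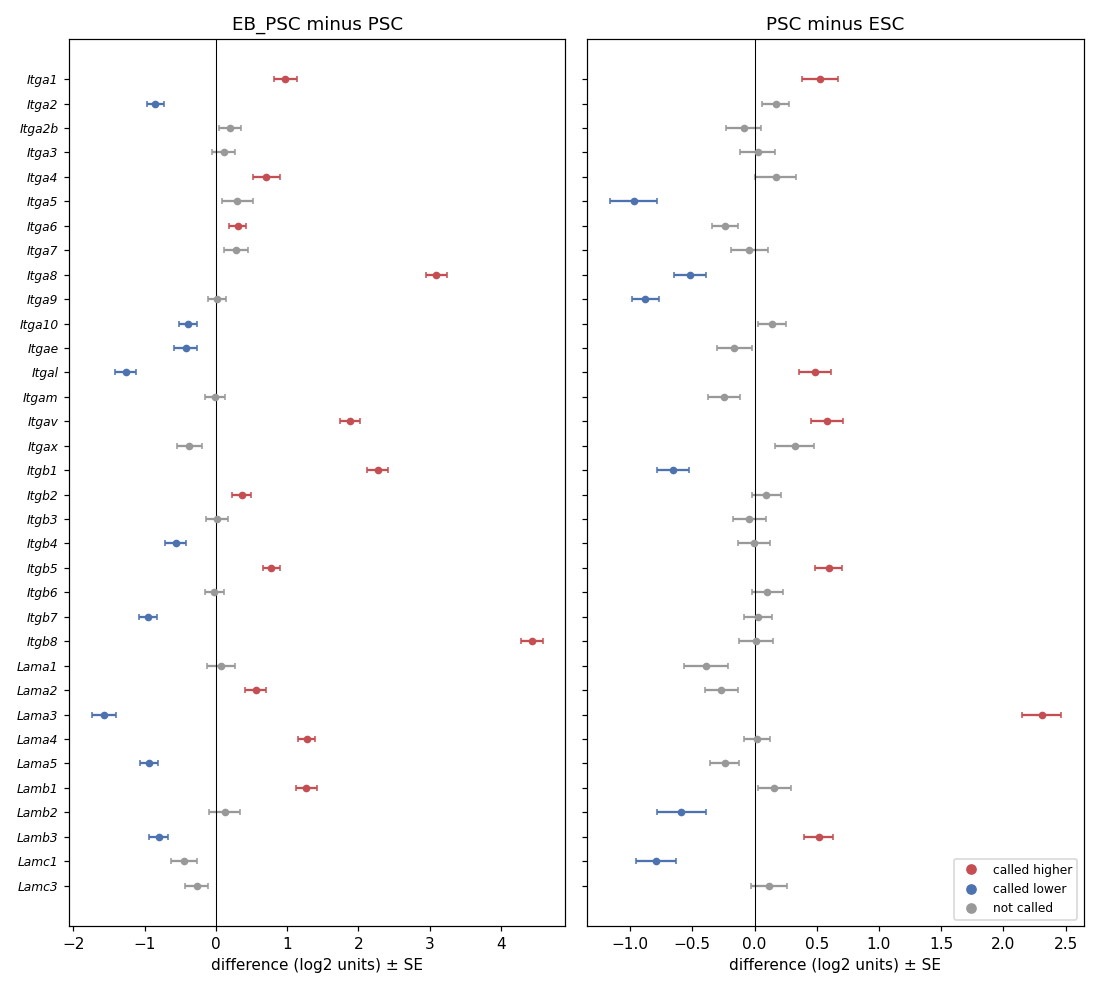
Differences in log2 units with their standard errors from limma for all 34 genes, EB_PSC minus PSC on the left and PSC minus ESC on the right, on axes of different range, with genes called higher in red, called lower in blue and not called in grey. On the left Itgb8 at 4.43 and Lama3 at -1.57 are the extremes, and on the right Lama3 at 2.31 lies apart from the other members, which lie between -0.97 and 0.60.

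Other probe sets of the same genes give a check within each array. The 34 genes have 73 probe sets that name 1 gene, 20 genes have several and 14 have 1. In a fit over all 34958 such probe sets, 6 genes had at least 2 probe sets called in the same direction between EB_PSC and PSC. Itgb1 had 4 of its 6, with differences of 2.27, 2.05, 0.95 and 0.54, the last at dim levels. Its others were dim and not called, at 0.20 and -0.19. All 4 probe sets of Itgb5 were called higher, by 0.58 to 1.01, and 3 of Lamb1 by 1.27, 1.41 and 1.39. Lama5 fell in both of its probe sets that were not dim, by 0.94 and 1.00. Itga8 had a second, dim probe set at 0.79, and Itgav a second one at 1.49.

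Calls in both directions were found for 2 genes. Besides the one used, Itga9 has a pair of dim probe sets, which differed by -0.50 (adjusted p = 0.0097) and 0.44 (0.017), while the one used differed by 0.02. For Itgav a dim probe set differed by -0.53 (adjusted p = 0.0219), against 1.88 and 1.49 in the brighter probe sets. Itga6 had 2 bright probe sets at 0.31 and -0.26, and neither was called in this fit (adjusted p = 0.0536 and 0.281). Of the probe sets of Itgae, the one used was not called here (-0.43, adjusted p = 0.0522) and the other was (-0.69, adjusted p = 0.00201). For Itgal, Lama3 and Lama4 the second probe set was dim in both groups and was not called. Which transcripts each probe set detects was not tested.

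**Figure D3:**
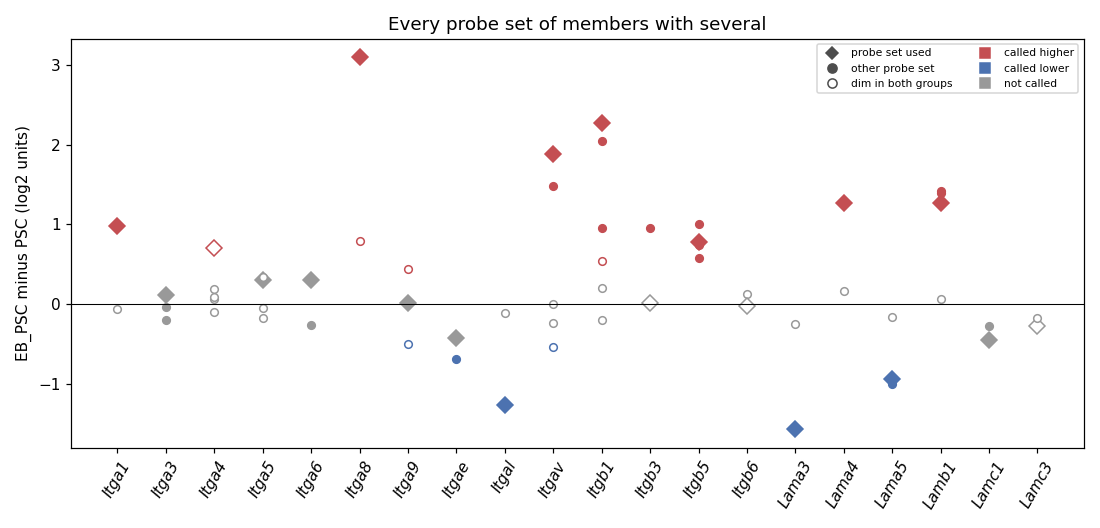
The difference between EB_PSC and PSC in log2 units (vertical axis) of every probe set of the 20 genes with several, with a diamond for the probe set used and circles for the others, open symbols where both groups are dim, red for called higher, blue for called lower and grey for not called over all 34958 probe sets. Probe sets of Itgb1, Itgb5, Lamb1 and Lama5 called in this fit lie on the same side of 0, and those of Itga9 and Itgav lie on both sides.

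The second comparison, PSC against ESC, sets the parthenogenetic cells beside embryonic stem cells of the line R1. Lama3 was the only member with a difference of 2-fold or more, and it was higher in PSC. Lower in PSC were Itga5 and Itga9, which bind fibronectin and tenascin, together with the shared chains Itgb1 and Lamc1. In all, 6 of the 34 genes were called higher in PSC, 6 lower and 22 neither, which is 35.3% called, where 20.8 percent of all genes were called. By direction this is 6 of 34 higher against 9.07 percent of all genes and 6 of 34 lower against 11.7 percent. Arrays did not overlap for 15 of the 34 genes (44.1%), where 36.5 percent of all genes did not overlap. The median difference was 0.02 over the members and 0.01 over all genes. With cyclic loess the calls over all genes moved from 1651 higher and 2131 lower to 1974 higher and 1933 lower. By family, 3 alpha genes were higher and 3 lower, 1 beta gene higher and 1 lower, and 2 laminin genes higher and 2 lower. Both comparisons use the PSC arrays, so their values for a gene are not independent.

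Lama3 was higher in PSC by 2.31 ± 0.16 log2 units (4.94-fold, limma adjusted p = 5.68e-07), with the lowest PSC array at 8.00 and the highest ESC array at 6.06. It stayed called under every alternative tried, between 1.17 with the Lama3 probe sets averaged and 2.57. That average includes a second Lama3 probe set, dim at 4.17 in PSC and 4.14 in ESC. By itself this probe set differed by 0.03 and was not called (limma adjusted p = 0.905). Lamb3, the partner of Lama3, was higher by 0.52 ± 0.12 at dim levels (adjusted p = 0.0067). Of the epithelial markers none was called higher in PSC and 4 of 10 were called lower, with a summed level of 11.41 to 11.62 in PSC and 11.93 to 12.14 in ESC, and with Krt14 and Trp63 dim in both. The part of epithelial cells in the Lama3 value was not tested. Itgb4, the hemidesmosome chain, differed by 0.00 ± 0.13 on overlapping arrays.

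Itgb5 and Itgav, partners in a vitronectin receptor, were higher in PSC by 0.60 ± 0.11 (1.51-fold, adjusted p = 0.00159) and 0.58 ± 0.13 (1.5-fold, adjusted p = 0.006), with no overlap. The call of Itgb5 was lost without probe sets ending in _x_at or _s_at (0.25, adjusted p = 0.308), and that of Itgav with its probe sets averaged (0.15, adjusted p = 0.28). Itga1 was higher by 0.53 ± 0.14 (adjusted p = 0.0191), with ESC dim, but not without PSC replicate 3 (adjusted p = 0.085), ESC replicate 1 (0.0679) or ESC replicate 3 (0.0765). Itgal was higher by 0.49 ± 0.13 (1.40-fold, adjusted p = 0.0168). Its call was lost without PSC replicate 1 (adjusted p = 0.0649), without PSC replicate 3 (0.0609) and with the Itgal probe sets averaged (0.19, adjusted p = 0.136). Markers of lymphocytes, which carry Itgal, were called higher in PSC for 1 of 6 and lower for none, with a summed level of 8.23 to 8.47 in PSC and 8.09 to 8.22 in ESC, and with Cd3g, Cd79a and Cd2 dim in both. The part of such cells in the Itgal value was not tested.

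Lower in PSC was Itga5, the fibronectin receptor chain, at 5.55, 5.55 and 5.77 in PSC and 7.14, 6.44 and 6.20 in ESC. The ESC arrays varied more than the PSC arrays but did not overlap with them, and Itga5 fell by 0.97 ± 0.19 (1.96-fold, adjusted p = 0.00285). The size for Itga5 was -0.38 (adjusted p = 0.0224) with its probe sets averaged and -0.56 (adjusted p = 0.0182) without probe sets ending in _x_at or _s_at. Itga9 was at 5.74, 5.81 and 5.58 in PSC and 6.64, 6.61 and 6.51 in ESC. It was lower by 0.88 on the log2 scale (a difference of -0.88 ± 0.11, 1.84-fold, adjusted p = 0.000119), and the groups were far apart for their spread. The mean of the Itga9 probe sets gave -0.41 (adjusted p = 0.00545).

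Itgb1 fell by 0.66 ± 0.13 in PSC against ESC (1.58-fold, adjusted p = 0.00273), a call lost with the Itgb1 probe sets averaged (-0.24, adjusted p = 0.0714). The gamma chain Lamc1 was lower by a difference of -0.79 ± 0.16 (1.73-fold, adjusted p = 0.00353), and -0.51 (adjusted p = 0.0412) with its probe sets averaged. Itga8 was lower at -0.52 ± 0.13 (adjusted p = 0.0109), with both groups dim, and was not called without PSC replicate 2 (adjusted p = 0.0603).

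Lamb2 was at 5.32, 5.47 and 6.12 in PSC and 6.46, 5.94 and 6.27 in ESC, and its arrays overlapped. It was called lower, at -0.59 ± 0.19 (1.5-fold, adjusted p = 0.0473). The call of Lamb2 was lost without PSC replicate 1 (adjusted p = 0.212), PSC replicate 2 (0.177), ESC replicate 1 (0.17) or ESC replicate 3 (0.127) and when only PSC and ESC were fitted (0.0505). Lamb2 has 1 probe set, and its adjusted p was 0.055 in the fit where the probe sets of other genes were averaged. Lama1, at 7.71, 7.82 and 7.84 in PSC and 8.35, 7.81 and 8.39 in ESC, differed by -0.39 ± 0.17 (adjusted p = 0.139), and was called only with array weights (-0.54, adjusted p = 0.00628) and without ESC replicate 2 (-0.58, adjusted p = 0.0205). Itga6 differed by -0.24 ± 0.10 (adjusted p = 0.128) although its arrays did not overlap, and it was called with array weights (adjusted p = 0.0281) and with its probe sets averaged (0.0211). Lamb1 differed by 0.16 ± 0.13 (adjusted p = 0.471), but was called lower, at -0.53 (adjusted p = 0.0266), without probe sets ending in _x_at or _s_at.

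The ESC were grown on fibroblasts, whose markers moved with this comparison. Of 10 fibroblast markers 5 were called lower in PSC and none higher, with a median difference of -0.77 and a summed level of 8.78 to 8.95 in PSC and 9.67 to 10.10 in ESC. Pdgfrb, Lum, Postn, Twist1, Prrx1 and Fap of that list were dim in PSC. Smooth muscle markers were called lower in PSC for 2 of 6, with 9.04 to 9.21 against 9.60 to 9.94 and Myh11 and Cnn1 dim in both. The part of feeder cells in the members lower in PSC was not tested. Between probe sets, no member had calls in opposite directions, and Itga5, Itga9, Itgb1 and Itgb5 each had at least 2 probe sets called alike. For Itgb5 both of these end in _x_at (0.60 and 1.01). Its others, at 0.25 and 0.34, were not called (limma adjusted p = 0.334 and 0.216).

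The 22 members not called between PSC and ESC had differences between -0.39 and 0.32, and their arrays overlapped except for those of Itga2, Itga6, Itgam and Lama5. Among them, Itgb8 differed by 0.01 ± 0.14, Lama4 by 0.02 ± 0.10, Itgb7 by 0.03 ± 0.11 and Itga3 by 0.02 ± 0.14, each with overlapping arrays. A p-value that misses the threshold does not show that their levels were equal.

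EB_PSC against ESC uses arrays of both earlier comparisons and differs in both differentiation and cell origin. The values of the called members are therefore set beside those against PSC, without a count of shared calls. In this comparison 11 members were called higher in EB_PSC and 9 lower, 58.8% in all, where 44.9 percent of all genes were called (19.3 percent higher and 25.6 percent lower). Arrays did not overlap for 25 of 34 genes (73.5%), where 61.1 percent of all genes did not. With cyclic loess the calls over all genes moved from 3513 higher and 4652 lower to 4435 higher and 3626 lower. The median difference was 0.02 over the members and -0.07 over all genes. The 14 members not called had differences between -0.46 (Lamb2) and 0.29 (Lama2).

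For Itgb8 the difference from ESC was 4.44 ± 0.15 (limma adjusted p = 8.48e-11), beside 4.43 from PSC. Itgav was 2.46 ± 0.14 higher than in ESC (5.52-fold), beside 1.88 against PSC, and Itga1 1.5 ± 0.16 beside 0.98. Itgb5 was 1.37 ± 0.12 higher (2.59-fold) beside 0.78. For Itgav, Itga1 and Itgb5 the PSC arrays lay between the ESC and EB_PSC arrays. For Itgb1 (1.61 ± 0.14, 3.06-fold) and Itga8 (2.58 ± 0.14) the difference from ESC was smaller than that from PSC, at 2.27 and 3.09, and PSC was the lowest group. Lamb1 was 1.43 ± 0.15 higher than in ESC (2.69-fold) beside 1.27, and Lama4 1.30 ± 0.12 higher beside 1.27. Itga4 was 0.87 ± 0.19 higher (adjusted p = 0.00159) beside 0.71. Itgb2 was 0.46 ± 0.13 higher (adjusted p = 0.00981) beside 0.36, a call lost without EB_PSC replicate 2 (adjusted p = 0.105). With the probe sets of each gene averaged, the differences from ESC were 0.67 for Itgav, 0.90 for Itga1, 0.73 for Itgb1, 1.57 for Itga8, 0.81 for Lamb1, 0.70 for Lama4 and 0.33 for Itga4, all still called. Without probe sets ending in _x_at or _s_at that of Lamb1 was 0.88.

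Lama3 was higher in EB_PSC than in ESC by 0.74 ± 0.17 (1.67-fold, adjusted p = 0.00325), the opposite direction to its fall against PSC. That call was lost with the Lama3 probe sets averaged (0.26, adjusted p = 0.122). Lamc1 was lower than in ESC, at -1.24 ± 0.18 (2.37-fold, adjusted p = 6.51e-05), beside -0.45 against PSC. Lama5 was lower at -1.18 ± 0.13 (2.27-fold) beside -0.94, and Itgb7 at -0.92 ± 0.12 beside -0.95. Itgal was lower at -0.78 ± 0.14 beside -1.26, Itga2 at -0.68 ± 0.12 beside -0.85 and Itga9 at -0.86 ± 0.12 beside 0.02. With the probe sets of each gene averaged, Itgal was at -0.50 and Itga9 at -0.42, both still called. Itgae was lower at -0.59 ± 0.16 (adjusted p = 0.00738) beside -0.43, but was not called without EB_PSC replicate 2 (adjusted p = 0.0715). Itgb4 was lower at -0.57 ± 0.14 (adjusted p = 0.00518) beside -0.57, but was not called without EB_PSC replicate 1 (adjusted p = 0.0695).

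Itga5 was lower in EB_PSC than in ESC, at -0.67 ± 0.21 (adjusted p = 0.0202) beside 0.30 against PSC. Its call was lost without EB_PSC replicate 1 (adjusted p = 0.0635) or EB_PSC replicate 2 (0.0951), with array weights (0.111), cyclic loess (0.0511) and the mean of its probe sets (0.0715), and when only these 2 groups were fitted (0.0527). Without ESC replicate 1, the highest array of Itga5, the size was -0.39 (adjusted p = 0.0449). Without ESC replicate 2 the calls also took in Lama1, Lama2 and Lamb2, at adjusted p-values of 0.0317, 0.0365 and 0.0437. Lama1 was also called without EB_PSC replicate 1 (-0.61, adjusted p = 0.0376).

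The rest of the pathway was described from 4 lists of the other genes of the pathway, without a test of any list. Over all genes, 18.8 percent were called higher and 25.2 percent lower in EB_PSC against PSC. These shares were 9.07 and 11.7 percent in PSC against ESC, and 19.3 and 25.6 percent in EB_PSC against ESC. Of 29 measured proteins that link integrins to the cytoskeleton or regulate them, 16 were called higher and 5 lower in EB_PSC against PSC, with a median of 0.74 beside -0.09 over all genes. Parva, a parvin that binds the integrin-linked kinase, rose by 3.69 ± 0.16 (limma adjusted p = 6.54e-10), from a dim level. Tgfb1i1, an adaptor of focal adhesions, rose by 3.45 ± 0.18, Cd47, the integrin-associated protein, by 2.03 ± 0.14, Vcl, which is vinculin, by 1.93 ± 0.12 and Cd151, a tetraspanin that binds laminin receptors, by 1.90 ± 0.17. The largest falls were those of Parvb, another parvin (-1.17 ± 0.15), and Tln2, a talin (-0.78 ± 0.13). Between PSC and ESC the same list had 1 called higher and 5 lower, with a median of -0.16. There Fermt3, the kindlin of blood cells, was higher by 0.94 ± 0.16, and Ptk2b (-0.76 ± 0.18), Bcar1 (-0.61 ± 0.13), Tln1 (-0.60 ± 0.16) and Parva (-0.53 ± 0.14) were lower. Fermt3 was dim in ESC, and Parva was dim in both PSC and ESC.

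Other basement membrane genes were called higher in EB_PSC for 7 of 20 and lower for 4, with a median of 0.06. Those that rose most were the collagen IV chains Col4a1 (4.73 ± 0.13) and Col4a2 (4.49 ± 0.15), the peroxidase gene Pxdn that cross-links collagen IV (3.20 ± 0.13), the laminin-binding nidogen gene Nid1 (1.79 ± 0.13) and Col4a5 (1.64 ± 0.14). Col4a1 was at 7.24 in PSC and 11.97 in EB_PSC, and Col4a5 was dim in PSC. The largest falls were those of Smoc1 (-1.12 ± 0.16) and Col18a1 (-0.97 ± 0.17). The list's median lies near 0 although Col4a1 and Col4a2 moved by more than any laminin chain. In PSC against ESC, 1 gene was called higher and 5 lower, with a median of -0.17. Smoc1 (-0.89 ± 0.15), Col4a2 (-0.84 ± 0.13), Col4a1 (-0.68 ± 0.12) and Fbln2 (-0.61 ± 0.20) were lower, and Sparc was higher by 0.51 ± 0.17.

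Among 28 measured other ligands of integrins, 15 were called higher and 3 lower in EB_PSC against PSC, with a median of 0.41. Col3a1, a fibrillar collagen, rose by 5.42 ± 0.22, Tgfb2, a gene of the TGF-beta family, by 4.82 ± 0.19 and Tnc, the tenascin bound by the product of Itga9, by 4.48 ± 0.20. Npnt, the nephronectin bound by the product of Itga8, rose by 4.44 ± 0.14, and Thbs1, a thrombospondin, by 4.10 ± 0.24. Tgfb2, Npnt and Thbs1 were dim in PSC. Tgfb1 and Tgfb3, of the same family as Tgfb2, were not called, at 0.27 ± 0.21 and 0.43 ± 0.20 (limma adjusted p = 0.331 and 0.104). Binding of the Tgfb2 product to integrins was not tested. The largest falls were those of Icam1, an ICAM protein (-2.63 ± 0.14), and Vwf (-2.07 ± 0.17, dim in EB_PSC). Between PSC and ESC 3 ligands were called higher and 6 lower, with a median of -0.05. Col3a1 (-1.41 ± 0.19), Col1a1 (-1.28 ± 0.24), Tnc (-1.13 ± 0.18) and Ccn3 (-0.95 ± 0.17) were lower in PSC, and Ccn1 was higher by 0.99 ± 0.13. Ccn3 was dim in both PSC and ESC. Fibroblasts make fibrillar collagens, and of their 10 markers 7 were called higher in EB_PSC than in PSC and 1 lower, and 5 were called lower in PSC than in ESC. Their part in the ligand values was not tested.

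Of 16 measured genes for laminin receptors other than integrins and for proteins that bind or glycosylate those receptors, 5 were called higher and 4 lower in EB_PSC, with a median of 0.11. Sgcb and Sgce, sarcoglycans of the dystroglycan complex, rose by 1.74 ± 0.18 and 1.23 ± 0.14, and Sdc2, a syndecan, by 1.26 ± 0.15. Pomt1, an enzyme that glycosylates dystroglycan, fell by 1.66 ± 0.24, and Sdc4, another syndecan, fell by 1.36 ± 0.23. In PSC against ESC 1 was called higher and 5 lower, with a median of -0.15. Sgce, an imprinted gene expressed from the paternal allele, was lowest, at -1.67 ± 0.12 (3.19-fold, limma adjusted p = 1.16e-06). It was at 5.67 in PSC, 6.90 in EB_PSC and 7.34 in ESC, and the part of imprinting in these values was not tested. Dmd (-0.98 ± 0.19), Sdc4 (-0.96 ± 0.20) and Bcam (-0.76 ± 0.22) were lower too, while Sdc2 was higher by 0.84 ± 0.13. Against ESC, the EB_PSC counts of higher and lower calls were 16 and 7 for the adhesion proteins, 6 and 3 for the basement membrane, 16 and 5 for the other ligands and 4 and 6 for the laminin receptors and their associated proteins.

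**Figure D4:**
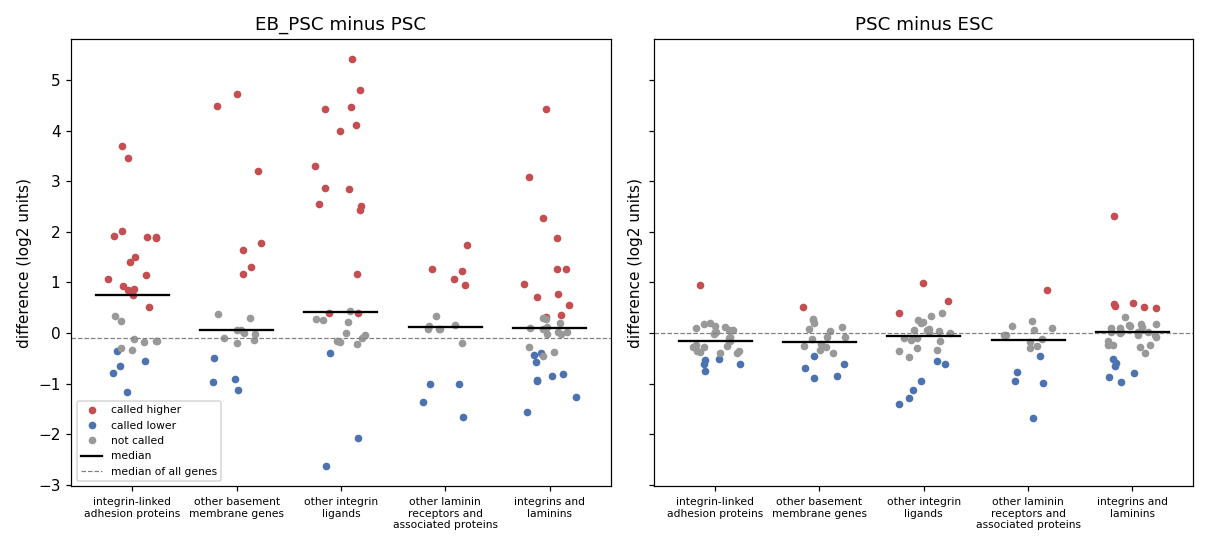
Differences in log2 units for every gene of the 4 pathway lists and for the 34 integrin and laminin genes, EB_PSC minus PSC on the left and PSC minus ESC on the right, with points in red called higher, in blue called lower and in grey not called, a black line at each list's median and a dashed line at the median of all genes (-0.09 and 0.01). On the left the median of the adhesion proteins lies at 0.74, and on the right all 4 pathway medians lie between -0.17 and -0.05.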

How the data were processed

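Total RNA of 8 samples was biotin-labelled and hybridised to 1-colour Affymetrix arrays. The deposited table holds log2 values of 45101 probe sets, which the authors computed by RMA, per the submitters' processing notes, with Bioconductor, per the labels. Software versions, background settings and any normalization across arrays were not given in the sources used here. Deposited values ran from 2.56 to 14.9, with array medians of 5.39 to 5.47, and were not normalized further. By the platform annotation 34958 probe sets name 1 gene, 932 name several and 9211 name none. Family genes without a probe set of their own were not analysed here.

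Groups were compared with limma 3.58.1 in R 4.3.3, in 1 fit of all 8 arrays with group as the only term (5 residual and 8.07 prior degrees of freedom). Two-sided p-values received the Benjamini-Hochberg adjustment over 18194 genes, with calls at adjusted values below 0.05. Errors are standard errors from the fit, and the number of arrays limits their precision. Every member was accounted for, with array values for called members whose groups do not overlap and for the 8 largest rises and falls of each comparison. Up to 5 called genes were named per pathway list by size of difference, and the largest falls in EB_PSC against PSC were added. The 20 pathway and marker lists hold 246 genes, of which 229 were measured. A summed level is the log2 of a list's summed linear values. Members and lists were chosen with earlier results of these data known. The fit was tested on simulated data. A planned look at protein sequences was not run. Alternatives were other normalizations, probe set rules, priors, array weights and fits, a filter on dim genes, a 2-fold minimum, a replicate block and each array left out.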

Additional observations from a re-analysis of the deposited data

How the results depend on the processing

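Calls of single genes depended on the setting. Over all settings, 1345 of the members' recomputed values were counted as unchanged, 52 lost the call and 20 gained one. A further 3 changed direction with a call in either fit. A change of sign between values that were not called was counted as unchanged, so directions of uncalled genes were not tracked. For example, the uncalled difference of Lama1 in EB_PSC against PSC ran from -0.22 to 0.37. The changes of direction were Lamb1 in PSC against ESC without probe sets ending in _x_at or _s_at (-0.53), and, with the mean of all probe sets, Itga6 (-0.35, adjusted p = 0.0223) and Itgb3 (0.62, adjusted p = 0.00256) in EB_PSC against ESC. A 2-fold minimum left 1 higher and 0 lower in PSC against ESC by limma, where 6 and 6 passed without it, 6 and 2 in EB_PSC against PSC, and 8 and 2 in EB_PSC against ESC. The filter on dim genes left 7 higher in EB_PSC against ESC. With 1 array left out, the counts of higher and lower calls ran from 4 to 6 and 4 to 7 in PSC against ESC, from 8 to 12 and 6 to 9 in EB_PSC against PSC, and from 10 to 12 and 7 to 11 in EB_PSC against ESC. Where an EB_PSC array was left out, the remaining one was assumed to vary like the other groups. The dim limit bounds the size of differences for genes below it.

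The deviations of same-numbered arrays from their group means correlated at -0.25, -0.07 and -0.04 between PSC and ESC, at -0.14 and 0.04 between PSC and EB_PSC and at 0.16 and 0.22 between EB_PSC and ESC, so the numbers were not taken to pair the arrays. With the replicate block, PSC against ESC gave 6 higher and 6 lower, EB_PSC against PSC 10 and 8, and EB_PSC against ESC 11 and 9. In EB_PSC against PSC the block lost the calls of Itga10, Itga6, Itgae and Itgb2 and gained Itgax.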

Other observations

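Markers of further cell types, counted between EB_PSC and PSC, give the setting of the integrin and laminin values. Visceral endoderm markers, among them plasma proteins made by yolk sac, were called higher for 5 of 10 and lower for 2, with a summed log2 level of 11.53 to 12.63 in EB_PSC and 9.83 to 10.17 in PSC. Erythroid markers were called higher for 4 of 7, with 12.80 to 13.56 against 7.90 to 8.03, and chondrocyte markers for 4 of 7 and lower for 1, with 9.64 to 9.65 against 8.20 to 8.31. Neural markers were called higher for 3 of 9 and lower for 3, with 11.11 to 11.38 against 11.63 to 11.84. Skeletal muscle markers were called higher for 2 of 10 and lower for 2, and Myod1, Myog, Myf5 and Myf6, the factors that specify that lineage, were dim in both groups. Markers of Schwann and neural crest cells were called higher for 1 of 5 and lower for 1. Over all genes, 18.8 percent were called higher and 25.2 percent lower in this comparison. These lists are described by their counts alone.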
